A study of Mus musculus with 40 samples.

Results

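Immunoglobulin and red cell genes were followed in the gastrocnemius and the quadriceps, 2 hindlimb muscles of the mouse. The set was a list of 9 genes, 5 of the B cell lineage (*Igkc*, *Ighm*, *Cd79a*, *Cd79b* and *Vpreb3*) and 4 of developing red cells (*Alas2*, *Slc4a1*, *Ahsp* and *Car1*), and a gene was included where a probe set of the array carried its Entrez number. This gave 7 genes (4 of the B cell list, 3 of the red cell list) among 16475 probe sets; *Cd79a* and *Ahsp* were not analysed here. The groups were the gastrocnemius of mice on a high fat diet (HFD), the quadriceps of HFD mice, the gastrocnemius of mice on a low fat diet (LFD) and the quadriceps of LFD mice, with 10 arrays each. All 20 mice were males, spelled C56BL/6J in the sample labels and C57BL/6J in the study's methods. Each mouse gave 1 array per muscle, after a run-in of 3 weeks on the LFD from 9 weeks of age and 8 weeks on its diet, at an age of 20 weeks. The labels describe RNA extraction for the quadriceps only, and the muscle of each array was taken from its title. Signal intensities (linear scale) came from whole muscle RNA, in which fewer cells of a type and less RNA per cell cannot be told apart.

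B cells develop in the bone marrow, where they rearrange their immunoglobulin genes and place the product on the surface together with the signalling proteins CD79A and CD79B. Plasma cells, their final form, secrete antibody and make immunoglobulin RNA in very large amounts. Red cell precursors mature in the marrow as well, where they make heme, hemoglobin and the proteins of the red cell membrane before they lose the nucleus. Skeletal muscle fibers belong to neither lineage, but whole muscle also holds vessels, blood and resident immune cells.

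In the B cell list, *Igkc* (Entrez gene 16071, chromosome 6) encodes the constant region of the kappa light chain, and *Ighm* (16019, chromosome 12) the constant region of the heavy chain of IgM. *Cd79b* (15985, chromosome 11) encodes the signalling subunit named above, and *Vpreb3* (22364, chromosome 10) a protein of B cell precursors that binds the heavy chain before a light chain is present. In the red cell list, *Alas2* (11656, chromosome X) encodes the red cell form of the enzyme that starts heme synthesis, *Slc4a1* (20533, chromosome 11) the anion exchanger band 3 of the red cell membrane, and *Car1* (12346, chromosome 3) a carbonic anhydrase of red cells. Chromosomes are those of assembly GRCm38.p6. The immunoglobulin genes belong to a multigene family, and signal from related segments cannot be told apart from their own.

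RefSeq (GRCm38.p6) gave promoter sequence for 2 of the 7 genes, and these are shown because 1 comes from each list. They are the 250 bases before the start of the gene, 5′ to 3′ on the strand of the gene, with a match to a searched motif in capitals: the octamer in *Vpreb3* and, on the opposite strand, the GATA motif in *Alas2*.
*Vpreb3* (chr10:75948050-75948299, plus strand): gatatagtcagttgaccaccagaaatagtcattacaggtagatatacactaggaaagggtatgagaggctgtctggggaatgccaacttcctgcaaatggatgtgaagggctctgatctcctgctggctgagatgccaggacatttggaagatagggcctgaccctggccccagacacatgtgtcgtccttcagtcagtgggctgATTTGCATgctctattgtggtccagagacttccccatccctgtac
*Alas2* (chrX:150547167-150547416, plus strand): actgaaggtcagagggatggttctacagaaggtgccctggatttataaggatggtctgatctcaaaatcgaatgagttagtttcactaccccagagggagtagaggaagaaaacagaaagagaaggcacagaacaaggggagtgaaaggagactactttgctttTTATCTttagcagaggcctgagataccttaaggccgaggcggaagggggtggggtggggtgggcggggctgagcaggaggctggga
Both strands were searched for AGATAA, the site of GATA factors such as GATA1 of red cells, CCACACCC of the red cell factor KLF1, the palindromic motif of the B cell factor EBF1, and ATTTGCAT, the octamer bound by POU factors at immunoglobulin promoters. The octamer of *Vpreb3* lay 37 bases before the start, and 1.6% of 32851 promoter windows held one. The GATA match of *Alas2*, which reads TTATCT on the printed strand, lay 80 bases before the start, and 9.99% of windows held AGATAA. Neither promoter held the other motifs. Of 21 other red cell genes with a promoter, 5 held AGATAA, and of 17 other B cell genes 1 held the octamer. Counted by gene in the same way rather than by window, 3090 of all 27025 genes held AGATAA and 490 the octamer.

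The arrays were alike as a whole. Their median signals were between 8.8 and 9.4, between 38.5% and 39.5% of probe sets were above 20 on each, correlations between arrays were at least 0.985 on the log2 scale, and no arrays held identical values. Of the 8 markers of skeletal muscle, none was called between the muscles, and their summed signal was 150500 to 162000 in the gastrocnemius and 148300 to 160400 in the quadriceps of HFD mice.

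The name of the B cell list was only partly borne out. *Ighm* was well above the background on all arrays and *Igkc* on some quadriceps arrays, but other genes that define B cells were low on all 40 arrays. *Cd79b* was at 2.9 to 7.1, *Vpreb3* at 2.4 to 4.0, the transcription factor gene *Pax5* at 2.1 to 3.3, the surface receptor gene *Cd22* at 2.5 to 3.5 and the CD20 gene *Ms4a1* at 3.0 to 4.9, all below the median signal of every array. The 4 genes are therefore called by their own names in what follows, and *Igkc* and *Ighm* are called immunoglobulin genes. The red cell genes *Slc4a1* and *Alas2* were above 20 on some quadriceps arrays, and the adult hemoglobin genes were not analysed here.

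*Igkc* had the widest range of the 7 genes on a ratio scale. In HFD mice its lowest, median and highest signals were 4.6, 6.75 and 41.7 in the gastrocnemius, against 7.7, 179.7 and 434.8 in the quadriceps. In LFD mice they were 4.7, 6.8 and 20.0 in the gastrocnemius, against 6.2, 44.65 and 166.0 in the quadriceps. Most gastrocnemius arrays lay near the background, the quadriceps arrays reached from the background to far above it, and the groups overlapped in both diets.

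**Figure D1:**
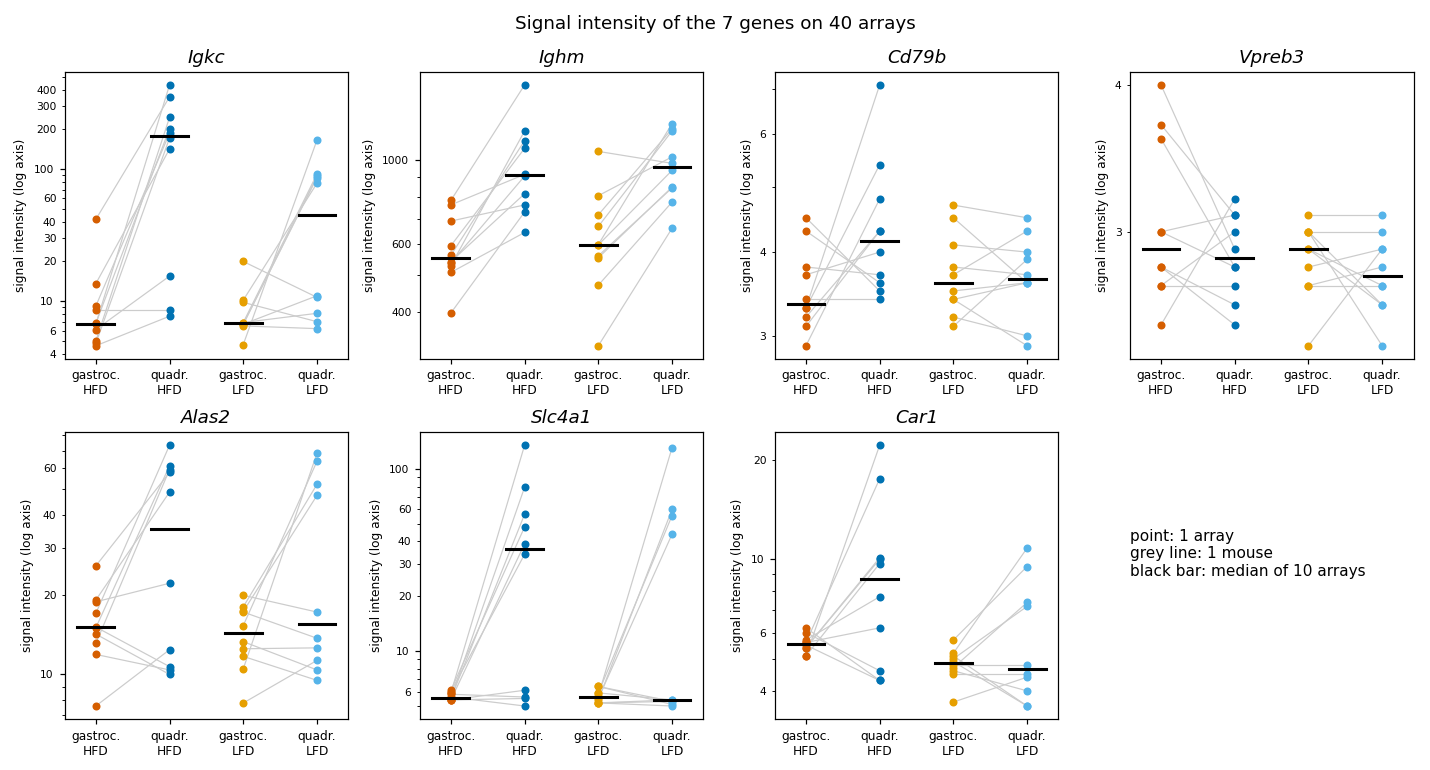
Signal intensity (log axis) of the 7 genes on 40 arrays. Each point is 1 array, grey lines join the muscles of a mouse and black bars mark the median of 10 arrays. *Igkc* reached 434.8 and *Slc4a1* 134.9 in the quadriceps of HFD mice, against at most 41.7 and 6.1 in their gastrocnemius, while *Ighm* was between 325.5 and 1573.1 on all arrays.

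In HFD mice *Igkc* was 11-fold lower in the gastrocnemius than in the quadriceps (log2 fold change −3.46 ± 0.72 SE, adjusted p = 0.00354, limma, n = 10 each), and lower within 9 of 10 mice. The remaining mouse, 144, had equal signals. In LFD mice the log2 fold change was −1.87 ± 0.58 (adjusted p = 0.0653), and *Igkc* was lower in the gastrocnemius of 7 mice and higher in that of 3. This difference did not pass the test without the mouse in the model or with it as a fixed block (adjusted p = 0.0626), and passed with the mouse as a random block (adjusted p = 0.0183) and without mouse 141 (adjusted p = 0.0377). As the gastrocnemius signals were near the background, the size depended on the scale: on log2 of the signal plus 20 it was −2.18 in HFD and −1.04 in LFD mice.

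*Ighm* was high on every array and differed between the muscles by a smaller factor. In HFD mice the lowest, median and highest signals were 396.8, 551.7 and 783.1 in the gastrocnemius and 645.2, 911.8 and 1573.1 in the quadriceps. In LFD mice they were 325.5, 599.3 and 1052.8 in the gastrocnemius and 661.6, 959.0 and 1245.2 in the quadriceps. The ranges overlapped, but the gastrocnemius was lower within all 10 HFD mice and within 9 of 10 LFD mice.

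The fold changes of *Ighm* passed the test in both diets. It was 1.63-fold lower in the gastrocnemius of HFD mice (log2 fold change −0.70 ± 0.15 SE, adjusted p = 0.00354, limma) and 1.57-fold lower in that of LFD mice (−0.65 ± 0.16, adjusted p = 0.0196). In LFD mice the call was lost without mouse 142 or mouse 155 (adjusted p = 0.0528 and 0.0517).

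*Cd79b* and *Vpreb3* stayed under the signal filter of 20 and are given from the same fit over all 16475 probe sets. *Cd79b* had lowest, median and highest signals of 2.9, 3.35 and 4.5 in the gastrocnemius and 3.4, 4.15 and 7.1 in the quadriceps of HFD mice. In LFD mice these were 3.1, 3.6 and 4.7 in the gastrocnemius and 2.9, 3.65 and 4.5 in the quadriceps. Neither difference passed the test (adjusted p = 0.243 in HFD and 0.978 in LFD mice, limma), and 3 quadriceps arrays, those of HFD mice 145, 146 and 149, were above every gastrocnemius array. *Vpreb3* had medians of 2.9 in the gastrocnemius of both diets, 2.85 in the quadriceps of HFD mice and 2.75 in that of LFD mice, with no call.

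*Slc4a1*, the band 3 gene, was at the background on all gastrocnemius arrays. Its lowest, median and highest signals were 5.4, 5.55 and 6.1 in the gastrocnemius and 5.0, 36.4 and 134.9 in the quadriceps of HFD mice. In LFD mice they were 5.2, 5.6 and 6.4 in the gastrocnemius and 5.0, 5.4 and 130.7 in the quadriceps. The quadriceps arrays were either no higher than the gastrocnemius arrays or at 34.0 or more, with 6 HFD and 4 LFD mice on the high side and none in between.

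In HFD mice *Slc4a1* was 4.01-fold lower in the gastrocnemius (log2 fold change −2.0 ± 0.54 SE, adjusted p = 0.0259, limma) and lower within 8 of 10 mice. The call was lost when any 1 of the mice 145, 146, 149, 150, 152 and 157 was left out (adjusted p = 0.0608 to 0.0711). In LFD mice the log2 fold change was −1.35 ± 0.57 (adjusted p = 0.181), with lower signals in the gastrocnemius of 6 mice and higher ones in that of 4. On log2 of the signal plus 20 the values were −0.98 in HFD and −0.69 in LFD mice.

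*Alas2*, the heme synthesis gene, lay closer to the filter of 20 in the gastrocnemius. In HFD mice its lowest, median and highest signals were 7.6, 15.05 and 25.7 in the gastrocnemius and 10, 35.45 and 73.4 in the quadriceps. In LFD mice they were 7.8, 14.3 and 19.9 in the gastrocnemius and 9.5, 15.45 and 68.4 in the quadriceps. The muscles overlapped in both diets and the differences did not pass the test, with log2 fold changes of −0.86 ± 0.39 in HFD mice and −0.71 ± 0.37 in LFD mice (adjusted p = 0.231 and 0.317, limma).

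*Car1*, the carbonic anhydrase gene, was low throughout. It was at 5.1, 5.55 and 6.2 (lowest, median and highest) in the gastrocnemius and 4.3, 8.7 and 22.1 in the quadriceps of HFD mice. In LFD mice it was at 3.7, 4.85 and 5.7 in the gastrocnemius and 3.6, 4.65 and 10.8 in the quadriceps. The muscles overlapped in both diets, and the log2 fold changes of −0.58 ± 0.24 in HFD mice (adjusted p = 0.265, limma) and −0.21 ± 0.18 in LFD mice (adjusted p = 0.68) did not pass the test.

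**Figure D2:**
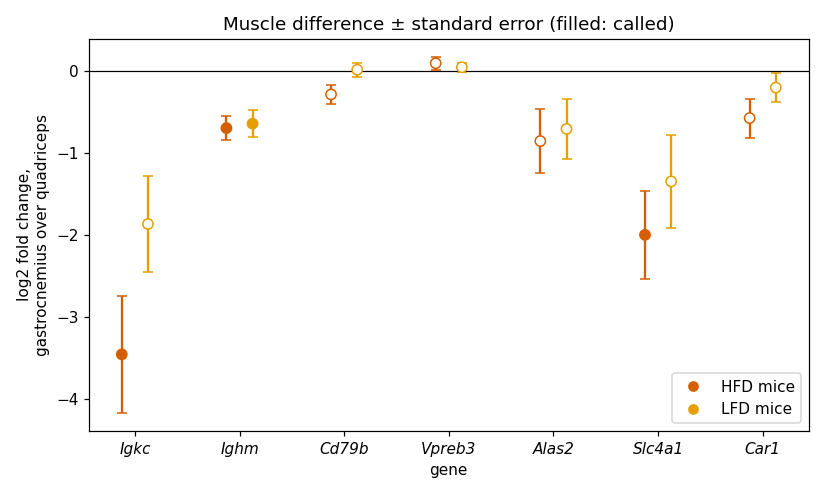
Log2 fold change of the gastrocnemius over the quadriceps (vertical axis) with its standard error for the 7 genes, in HFD mice (left point of each pair) and LFD mice (right point). Filled points passed the test: *Igkc* at −3.46, *Ighm* at −0.70 and *Slc4a1* at −2.0 in HFD mice and *Ighm* at −0.65 in LFD mice.

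Together, 3 of the 7 genes (*Igkc*, *Ighm* and *Slc4a1*) fell in the gastrocnemius of HFD mice, where 1.54% of the 6479 probe sets tested did, and 1 of 7 (*Ighm*) in that of LFD mice, where 1.1% did. None rose, where 1.91% of tested probe sets did in HFD and 1.42% in LFD mice. The call required a fold change above 1.3 with a false discovery rate below 0.05. The filter of 20 was passed by 4 of the 7 genes, and for *Igkc*, *Slc4a1* and *Alas2* only through the quadriceps arrays. Whether the muscle difference depended on the diet was tested by the interaction, which was called for none of the 7 genes (adjusted p = 0.9998 for each, limma) and for 0% of all tested probe sets. At an unadjusted p under 0.05 there was 1 of 7, *Cd79b* (p = 0.049 from limma), against 1.82% of the tested probe sets and 2.99% in the fit over all probe sets, from which *Cd79b* was taken. The interaction of *Igkc* was −1.59 ± 0.96 and that of *Slc4a1* −0.65 ± 0.81 on the log2 scale.

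Within the quadriceps, no gene of the set was called between HFD and LFD mice, where 0.0617% of tested probe sets were. The log2 fold change of HFD over LFD was 1.66 ± 0.68 for *Igkc* (adjusted p = 0.732, limma), 0.58 ± 0.22 for *Car1* (adjusted p = 0.754), 0.65 ± 0.57 for *Slc4a1* and 0.27 ± 0.39 for *Alas2* (adjusted p = 0.998 for both). *Ighm* was at −0.02 ± 0.16. At an unadjusted p under 0.05 there were 3 of 7 (*Igkc*, *Car1* and *Cd79b*), against 5.68% of the tested probe sets and 5.41% in the fit over all probe sets, from which *Car1* and *Cd79b* were taken. In the gastrocnemius none of the 7 was called or had an unadjusted p under 0.05, where 0.216% of the tested probe sets were called and 8.97% (6.19% in the fit over all probe sets) had such a p, and *Igkc* and *Slc4a1* differed between the diets by 0.07 and 0.00 on the log2 scale.

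For *Car1* and *Alas2* the mice differed among themselves less in the gastrocnemius than in the quadriceps. The deviation of each array from the median of its group was compared between the muscles on the log2 scale. It was smaller in the gastrocnemius for *Car1* (−0.47 ± 0.09 SE, adjusted p = 0.0236, limma) and *Alas2* (−0.73 ± 0.15, adjusted p = 0.0423), which makes 2 of 7 called against 0.0926% of the tested probe sets and 0.14% in the fit over all probe sets, from which *Car1* was taken. *Slc4a1* at −1.41 ± 0.34 (adjusted p = 0.0828) and *Igkc* at −1.21 ± 0.32 (adjusted p = 0.186) did not pass. *Ighm* was at 0.00 ± 0.07. Leaving out 1 mouse ended the call of *Alas2* for each mouse other than 141, 142, 147, 154 and 156 (adjusted p = 0.0526 to 0.827), and that of *Car1* for 11 mice (143, 144, 145, 146, 148, 150, 151, 153, 155, 158 and 160, adjusted p = 0.0511 to 0.149). On log2 of the signal plus 20, *Igkc* (adjusted p = 0.0237) and *Slc4a1* (adjusted p = 0.0472) passed and *Car1* (adjusted p = 0.0776) did not.

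The quadriceps arrays are given 1 by 1, since the difference of *Igkc* and *Slc4a1* between the muscles came mostly from some of them. That of *Ighm* was shared by nearly all mice. *Igkc* in the quadriceps of HFD mice was at 434.8 in mouse 145, 352.8 in mouse 158, 246.6 in mouse 146, 203.3 in mouse 149, 187.3 in mouse 150, 172.1 in mouse 152, 142.3 in mouse 151, 15.5 in mouse 157, 8.6 in mouse 144 and 7.7 in mouse 143. In LFD mice it was at 166.0 in mouse 142, 91.8 in mouse 155, 88.2 in mouse 160, 86.4 in mouse 153, 78.3 in mouse 148, 11 in mouse 156, 10.7 in mouse 154, 8.1 in mouse 147, 7.0 in mouse 159 and 6.2 in mouse 141. The highest gastrocnemius array, that of HFD mouse 158, was at 41.7, so that 12 of 20 quadriceps arrays (7 HFD, 5 LFD) were above all gastrocnemius arrays. This count, and those that follow, were chosen after the values were seen.

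*Slc4a1* in the quadriceps of HFD mice was at 134.9 in mouse 146, 79.3 in mouse 145, 56.4 in mouse 149, 48.0 in mouse 152, 38.8 in mouse 157 and 34.0 in mouse 150, and at 5.0 to 6.1 in mice 143, 144, 151 and 158. In LFD mice it was at 130.7 in mouse 148, 59.9 in mouse 153, 55.4 in mouse 155 and 43.8 in mouse 160, and at 5.0 to 5.4 in the other 6. These 10 arrays were above the highest gastrocnemius array, at 6.4. *Car1* was above its own highest gastrocnemius array, at 6.2, on the same 10 arrays, and *Alas2*, with 25.7 as its limit, on 9 of them, all but that of mouse 150.

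**Figure D3:**
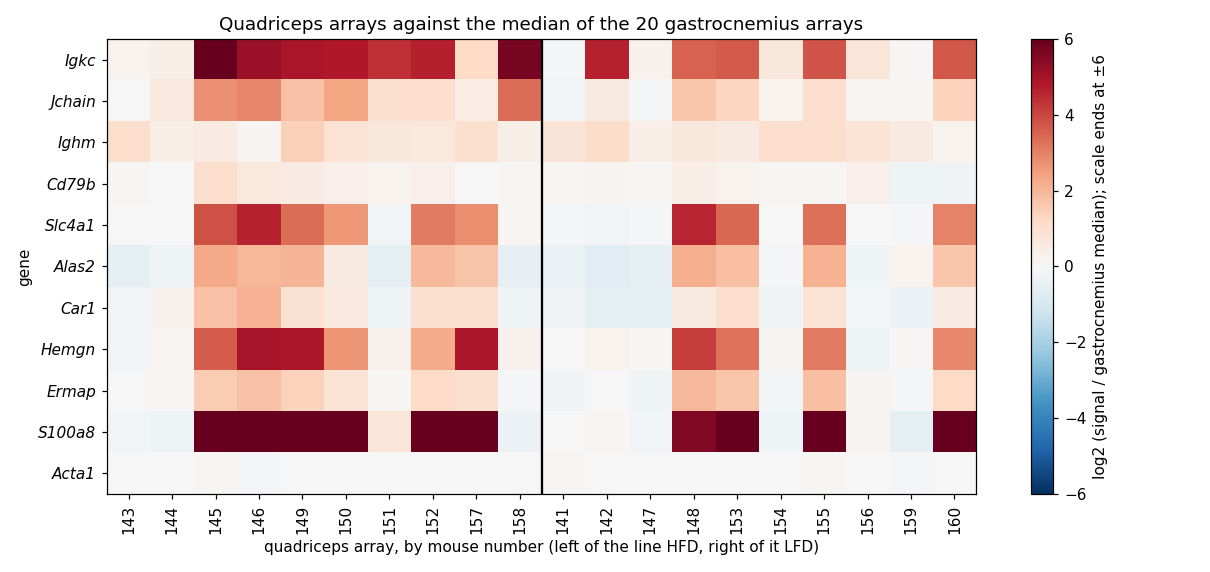
Signal of 11 genes (rows) on the 20 quadriceps arrays (columns, by mouse number, HFD left of the line and LFD right of it), as log2 of the ratio to the median of the 20 gastrocnemius arrays (colour, scale ending at a size of 6). *Slc4a1*, *Alas2*, *Car1*, *Hemgn*, *Ermap* and *S100a8* are high in nearly the same columns, *Igkc* and *Jchain* are also high in that of mouse 158, and *Ighm* and the muscle actin gene *Acta1* vary little.

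Of all 16475 probe sets, 1.45% were above every gastrocnemius array on at least 10 quadriceps arrays and 0.704% on at least 12. *Igkc* and *Slc4a1* shared 9 of these arrays, 75% of the 12 of *Igkc* and 90% of the 10 of *Slc4a1*. The 2 genes parted on 4 arrays. *Igkc* was high and *Slc4a1* was not in LFD mouse 142 and HFD mice 151 and 158, where *Igkc* was at 166.0, 142.3 and 352.8 and *Slc4a1* at 5.0, 5.0 and 6.1. In HFD mouse 157 *Slc4a1* was at 38.8, with *Alas2* at 48.8 and *Car1* at 10.1, while *Igkc* was at 15.5.

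**Figure D4:**
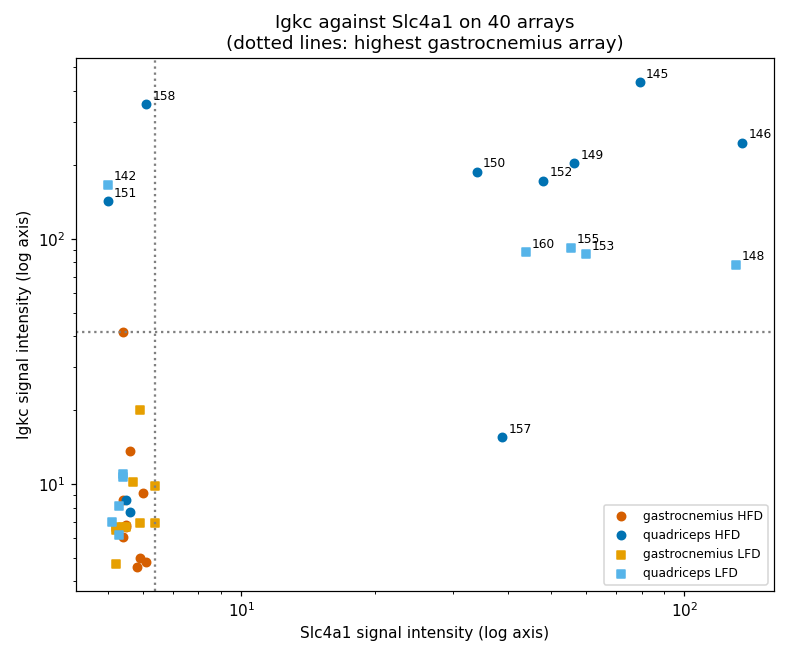
*Igkc* against *Slc4a1* on 40 arrays (signal intensity, log axes), with the highest gastrocnemius array of each gene as a dotted line. Quadriceps arrays beyond a line carry the number of the mouse: 9 are beyond both lines, mice 142, 151 and 158 are high for *Igkc* alone and mouse 157 for *Slc4a1* alone.

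*Ighm* followed neither gene. It was above its highest gastrocnemius array (1052.8) on 7 quadriceps arrays, and its 5 highest were those of HFD mouse 149 (1573.1), LFD mouse 142 (1245.2), LFD mouse 154 (1206.8), HFD mouse 143 (1191.3) and LFD mouse 155 (1191.0). In mice 154 and 143 *Igkc* was at 10.7 and 7.7. *Igkc* and *Ighm* shared 1 of their 5 highest arrays, *Slc4a1* and *Alas2* shared 4, *Slc4a1* and *Car1* 3, and *Igkc* and *Slc4a1* 3. In HFD mouse 146, where *Slc4a1* was highest and *Igkc* was at 246.6, *Ighm* was at 645.2, the lowest of the quadriceps arrays of that diet.

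No correlation over the quadriceps arrays is reported among the 7 genes, because *Slc4a1*, *Alas2* and *Igkc* fell into separate high and low arrays. The gap between the low and the high arrays, as a share of the whole log2 range, was 0.521 for *Slc4a1*, 0.381 for *Igkc* and 0.373 for *Alas2*. The other genes did not split in this way: the widest gap was 0.141 for *Car1*, 0.131 for *Vpreb3*, 0.081 for *Cd79b* and 0.075 for *Ighm*. The plan based this choice on the log2 mean of the 7 genes. The widest gap of that mean was 0.197, under the planned limit, so leaving the correlation out departed from the plan.

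The other genes of the B cell lineage moved little. Of 24 with a probe set, 3 passed the filter and none of these was called in either diet; the median log2 fold change of the 24 was −0.06 in HFD and 0.01 in LFD mice, against 0.00 and 0.01 over all probe sets. *Cd24a*, a surface protein of B cell precursors and many other cells, was lower in the gastrocnemius of HFD mice with a log2 fold change of −0.20 ± 0.04 (adjusted p = 0.00155, limma), under the fold threshold. *Cd74*, which escorts major histocompatibility proteins, was at −0.42 ± 0.15 (adjusted p = 0.0952), and *Ebf1*, a transcription factor of B cell precursors and fat cells, at 0.03 ± 0.17. The genes *Rag1*, which cuts immunoglobulin genes for rearrangement, and *Vpreb1*, of the surrogate light chain, were at 3.1 to 5.8 and 3.9 to 7.9 on all arrays. *Blnk* of the same list, named after its values were seen, was higher in the gastrocnemius of 9 mice in each diet, without a call. Its medians, under the filter, were 7.25 in the gastrocnemius and 6.05 in the quadriceps of HFD mice, and 9.45 and 6.9 in LFD mice.

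*Jchain*, which joins secreted IgM and IgA units and marks plasma cells, was the only gene of this list called between the muscles in the fit over all probe sets. Its lowest, median and highest signals were 3.1, 3.85 and 5.7 in the gastrocnemius and 3.4, 9.3 and 34.8 in the quadriceps of HFD mice. In LFD mice they were 2.8, 3.2 and 4.2 in the gastrocnemius and 3.1, 4.5 and 10.8 in the quadriceps. In the fit over all probe sets *Jchain* fell in the gastrocnemius of HFD mice (log2 fold change −1.43 ± 0.35, adjusted p = 0.0231, limma), as 0.868% of all probe sets did, and was at −0.64 in LFD mice (adjusted p = 0.11).

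The arrays high for *Jchain* were nearly those high for *Igkc*. It was above all gastrocnemius arrays on 11 quadriceps arrays, which were 11 of the 12 of *Igkc*, and both genes had the same 5 highest arrays (HFD mice 145, 146, 149, 150 and 158). *Mzb1*, a chaperone of plasma cells and innate-like B cells, was at 3.8 to 5.7 on all arrays, and *Iglc1*, a lambda light chain gene, at 2.9 to 6.7.

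Other red cell genes were high on the same arrays as *Slc4a1*. Of 30 with a probe set, 10 were above every gastrocnemius array on at least 10 quadriceps arrays, against 1 of 24 other B cell genes and 1.45% of all probe sets. *Rhag*, of the Rh complex, *Hemgn*, a nuclear protein of red cell precursors, *Ermap*, a red cell membrane protein, *Nfe2*, a transcription factor of globin genes, and *Car2*, a second carbonic anhydrase, were each above on the 10 arrays named for *Slc4a1*. *Hemgn* had lowest, median and highest signals of 2.5, 2.8 and 3.3 in the gastrocnemius and 2.5, 15.25 and 85.2 in the quadriceps of HFD mice. In LFD mice it was at 2.2, 2.8 and 3.6 in the gastrocnemius and 2.3, 3.15 and 49.2 in the quadriceps.

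By the test, 2 of the 13 other red cell genes over the filter fell in the gastrocnemius of HFD mice, none in that of LFD mice, and none rose, against 1.54% of the tested probe sets lower in HFD and 1.1% in LFD mice. *Slc25a37*, which carries iron into mitochondria, was 1 of them and changed by −0.49 ± 0.13 on the log2 scale (adjusted p = 0.0238, limma). *Car2* at −1.22 ± 0.38 did not pass (adjusted p = 0.0542). In the fit over all probe sets *Hemgn* (−2.35 ± 0.61, adjusted p = 0.0348), *Ermap* (−0.79 ± 0.21, adjusted p = 0.0373) and *Trim10*, a factor of late red cell maturation (−0.65 ± 0.18, adjusted p = 0.0485), fell as well. The median over all 30 was −0.20 in HFD and −0.18 in LFD mice.

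*Fech*, *Uros* and *Cpox* of heme synthesis and *Tfrc* of iron uptake were over the filter and not called. *Fech*, the enzyme that inserts iron into heme, was at −0.05 ± 0.07 (adjusted p = 0.821, limma) in HFD mice, *Uros* at 0.02 ± 0.08 (adjusted p = 0.94) and *Cpox* at −0.16 ± 0.12 (adjusted p = 0.546). *Tfrc*, the transferrin receptor gene, was at 0.66 ± 0.26 (adjusted p = 0.148).

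Markers of neutrophils were high on many of the same arrays. The summed signal of 14 neutrophil genes was 67.7 to 76.5 in the gastrocnemius and 62.5 to 14100 in the quadriceps of HFD mice, and 65.7 to 75.4 in the gastrocnemius and 66.5 to 2698 in the quadriceps of LFD mice. *S100a8*, which encodes a calcium-binding protein of neutrophils, was at 5.4, 7.3 and 9.7 in the gastrocnemius and 5.7, 556.35 and 4031.3 in the quadriceps of HFD mice. It was above all gastrocnemius arrays on 11 quadriceps arrays, the 10 of *Slc4a1* and that of mouse 151, where it was at 11.9.

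The quadriceps arrays of mice 142 and 158, high for *Igkc*, had *S100a8* at 7.8 and 5.7. Of the 14 neutrophil and 30 other red cell genes, only the neutrophil protease gene *Mmp9* and the Rh antigen gene *Rhd* in mouse 142, and the antimicrobial peptide gene *Camp* and *Slc25a37* in mouse 158, were above every gastrocnemius array there. Of the 6 neutrophil genes over the filter, 3 fell in the gastrocnemius of HFD mice (*S100a8*, *S100a9* and *Camp*) and none in that of LFD mice, against 1.54% and 1.1% of the tested probe sets. These 3 passed the filter only through the quadriceps arrays, and in the fit over all probe sets 2 neutrophil genes fell in HFD mice, against 0.868%. Of 14 neutrophil genes, 9 were above every gastrocnemius array on at least 10 quadriceps arrays. The part of these genes, and of the cells they mark, in the differences of *Igkc* and *Slc4a1* was not tested.

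Summed signals of other cell types had narrower ranges than those of the neutrophil genes. A sum mostly reflects its genes of highest signal. For the 30 other red cell genes the sums were also in a narrow range, 6071 to 7914 in the gastrocnemius and 6604 to 8756 in the quadriceps of HFD mice. For 9 megakaryocyte and platelet genes they were 271.7 to 380.2 in the gastrocnemius and 194.9 to 613.1 in the quadriceps of HFD mice, for 10 osteoclast and bone genes 61.7 to 95.4 and 65.7 to 205, for 11 T cell genes 68.4 to 91.9 and 77.7 to 124.6, and for 9 macrophage genes 682.2 to 1248 and 640 to 1773, in the same order of muscles. Single genes of these lists, named after their values were seen, were high on the arrays of *Slc4a1*: the platelet chemokine gene *Ppbp*, at 2.8 to 4.0 in the gastrocnemius and 3.3 to 119.2 in the quadriceps of HFD mice, and the bone matrix gene *Ibsp* were above every gastrocnemius array on those 10, and the collagenase gene *Mmp13* on those and that of mouse 154. *Ppbp* did not pass the test in HFD mice (log2 fold change −2.35 ± 0.66, adjusted p = 0.0525, limma). Called in both diets were *Acp5*, the tartrate-resistant phosphatase gene of osteoclasts and macrophages (log2 fold change −1.30 in HFD and −0.66 in LFD mice, adjusted p = 0.00281 and 0.0285, limma), and *Thy1*, a surface protein of T cells and fibroblasts (−0.60 and −0.47, adjusted p = 0.0044 and 0.0347). GC-RMA leaves no signal at 0.

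The genes most like the set were found by the correlation of log2 signals, centred within each diet, over the 20 quadriceps arrays, as a description in which the split into high and low arrays weighs most. Most like the mean of *Slc4a1*, *Alas2* and *Car1* were *Rrm2*, a subunit of ribonucleotide reductase that dividing cells need for DNA synthesis (Pearson r = 0.98, Spearman rho = 0.97), *Car2* (0.98 and 0.95), *Ermap* (0.98 and 0.89), *Spp1*, which encodes osteopontin (0.97 and 0.95), and *Ctse*, which encodes cathepsin E (0.97 and 0.93). *Rrm2* was at 4.8 to 7.7 on the gastrocnemius arrays and at 4.4 to 73.1 in the quadriceps of HFD mice, and its r over the gastrocnemius arrays was 0.17.

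Most like the mean of the B cell list were *Grn*, the progranulin gene (r = 0.86, rho = 0.75), *Ctss*, a protease of antigen-presenting cells (0.85 and 0.76), *Pf4*, which encodes platelet factor 4 (0.85 and 0.78), *F13a1*, a clotting factor subunit of platelets and macrophages (0.84 and 0.78), and *Fap*, a surface protease of fibroblasts (0.83 and 0.73). These genes were well above background on every array and varied by a small factor: *Ctss* was at 121.5 to 226.5 on the gastrocnemius arrays and at 113.4 to 253.5 in the quadriceps of HFD mice. *Igkc*, with the widest range on the log2 scale, weighed most in the mean of the list, and *Ighm* did not follow it. For *Igkc* alone, a choice made after the values were seen, the closest were *Ctss* (r = 0.88), *Col5a2* (0.88) and *Sparc* (0.88), the last 2 genes of the extracellular matrix. In the gastrocnemius r with the mean of the list was −0.01 for *Grn* and 0.71 for *Fap*.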

How the data were processed

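RNA of 2 muscles of 20 mice was measured on 40 Affymetrix mouse genome arrays. The authors assigned probes to Entrez genes and summarised each gene with GC-RMA (version number not given in the sources used here) after quantile normalization. What they deposited is a linear signal intensity for each of 16539 probe sets, and 64 control probe sets were dropped. RefSeq (GRCm38.p6) named 16229 of the other 16475 through the Entrez number, the platform annotation 28, and 218 had no name. The number of arrays limits the precision.

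The 7 genes and the gene lists beside them were chosen with earlier results of these data known. Log2 intensities were fitted with limma 3.58.1 in R 4.3.3 for the 6479 probe sets with a mean over 20, and genes below from a fit over all 16475. Muscles were compared within each diet (20 arrays), and diets and the interaction in a model of the 4 groups. P-values were adjusted by Benjamini-Hochberg over all probe sets of a fit, and spread and interaction were called without a fold threshold. The scripts were tested on simulated data. Genes named from the other lists were up to 4 per list with the smallest adjusted p in HFD mice, and single defining genes; *Uros*, *Cpox*, *Fech*, *Tfrc* and the other red cell genes high on quadriceps arrays were named after their values were seen. Some genes of these lists are counted but not reported here. The 5 genes most like each list were named by Pearson correlation.

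Mouse numbers pair the muscles, as both come from the same animal. Deviations from the group means had a median correlation within a mouse of −0.07 in HFD and 0.39 in LFD mice, against −0.01 and −0.05 between mice. The mouse was not in the model, since the study's methods name no such term. It was added as a block in alternatives for the muscle comparisons and the interaction. Others were the signal filter, log2 of the signal plus 20, repeated quantile normalization, a trended robust variance, and leaving out each mouse. A planned correlation over the quadriceps arrays is not given, since the signals of single genes fell into separate clusters. This departed from the plan, which judged the gap in the mean of the 7 genes. Promoters came from RefSeq for 2 of the 7 genes; protein sequences were not used here. Python 3.11.15 with pandas 2.3.3, numpy 2.4.6, scipy 1.17.1 and matplotlib 3.10.9 served for the descriptions and figures.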

Additional observations from a re-analysis of the deposited data

Results flagged for a closer look

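*Igkc* in the gastrocnemius of HFD mouse 158 stood apart from the other 9 arrays of its group. Its signal was 41.7, and the gap to the next array made up 0.508 of the range of the group on the log2 scale. The quadriceps of the same mouse had the second highest *Igkc* signal of all arrays, 352.8. It was the only one of 28 combinations of gene and group to stand apart in this way, and chance gives about 1 in 20.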

How the results depend on the processing

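Of 952 values of the 7 genes under alternatives, 911 kept their side of the threshold, 36 no longer passed and 5 newly passed, and no called value changed sign. Most of the 952 belonged to genes and comparisons without a call, and the 36 all fell on the few values called at first. Leaving out 1 mouse ended the spread call of *Alas2* for 15 mice and of *Car1* for 11. It ended the muscle call of *Slc4a1* in HFD mice for 6 and of *Ighm* in LFD mice for 2. In the gastrocnemius of LFD mice 1 gene was called, 2 with the mouse as a random replicate block and 0 to 2 when 1 mouse was left out. In HFD mice 3 were called, and 2 to 3 when 1 mouse was left out. For the spread 2 were called, and 0 to 2 when 1 mouse was left out; with a trended robust variance *Alas2* no longer passed (adjusted p = 0.144, limma) and *Slc4a1* did (adjusted p = 0.0142). The mouse as a block was fitted for the muscle comparisons and the interaction only, not for the spread or the diets. It changed no other call of the 7 genes there. Over all probe sets, 7 were called for the spread, 24 without the filter and 12 on log2 of the signal plus 20. When 1 mouse was left out, that count was 0 to 6, the count for the diet in the quadriceps 1 to 10 (4 with all mice) and that for the diet in the gastrocnemius 9 to 19 (14 with all mice). The causes were not tested. Signals near the array medians of 8.8 to 9.4 limit the size of a fold change, and *Cd79b*, *Vpreb3* and *Car1* had no mean above 20.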
